A study of Mus musculus with 10 samples.

Results

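The genes described here are the protein-coding members of 10 solute carrier (Slc) families that move sugar, bicarbonate, sodium, chloride, phosphate and sulfate, picked by gene symbol from the families Slc2, Slc4, Slc5, Slc8, Slc9, Slc12, Slc17, Slc20, Slc26 and Slc34. There were 84 such genes among 54532 genes in the count table. Male wild-type C57BL/6 mice aged 8 weeks had the left ureter tied (unilateral ureteral obstruction, UUO), and the obstructed kidney was taken 14 days later. The PBS group received phosphate-buffered saline, and the DMM group received dimethyl malonate, a cell-permeable precursor of the succinate dehydrogenase inhibitor malonate, at 40 mg/kg by intraperitoneal injection every other day. Bulk RNA-seq of whole kidney gave 5 libraries in each group, with total counts from 15722527 to 19475833 per library, and no unobstructed kidney was analysed here.

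In the nephron, a sodium gradient drives the uptake that Slc5 sugar carriers, Slc34 phosphate carriers and the Slc9 exchangers carry out at the apical membrane, while Slc2 facilitators and the Slc4 bicarbonate cotransporter pass their solutes on to the blood. Slc12 cotransporters take up salt in the thick ascending limb and the distal convoluted tubule, and Slc4 and Slc26 anion exchangers handle acid and base in intercalated cells. Loss of such carriers from injured tubules is a known feature of kidneys with obstruction, so that their transcripts are often read as a sign of how much differentiated epithelium is left.

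The tissue label held in the marker genes. All 12 proximal tubule markers were tested, with Kap the most abundant at a mean of 2270 CPM (counts normalised to library size after TMM scaling), and Umod, the marker of the thick ascending limb, averaged 2400 CPM. Havcr1, the injury marker also known as Kim1, averaged 793 CPM. The symbol rule also caught 3 genes that are not carriers. Slc9a3r1 and Slc9a3r2 encode scaffold proteins (NHERF1 and NHERF2) that hold transporters at the apical membrane, and Slc4a1ap encodes a protein named for its binding to the anion exchanger Slc4a1.

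Some libraries stood apart. PBS replicate 3 was the highest of the PBS libraries in 37 of 69 tested members (53.6%), against 26.9% of all tested genes, and DMM replicate 1 was the lowest of the DMM libraries in 32 (46.4%), against 19.4% of all tested genes. These 2 libraries carried a weight of 0 in the group means that the authors deposited, for a reason not given in the sources used here. The methods of the study instead state 5 independent replicates for its test of differential expression. Results are therefore given over all 10 libraries first and over the other 8 (PBS replicates 1, 2, 4 and 5, DMM replicates 2, 3, 4 and 5) beside them. Since 8 libraries are common to both sets, results from the smaller set are not independent of those from the larger. DMM replicate 4 was an extreme library as well. Over all tested genes it was the highest DMM library in 37.7% and the lowest in 40.1%, and its log2 difference from DMM replicates 2, 3 and 5 was correlated with gene length (r = 0.58 across 69 members, 0.39 across 16505 genes) and inversely with transcript GC content (r = -0.60 across members, -0.47 across 16491 genes). Genes are not independent replicates, and these values describe 1 library.

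Over all 10 libraries, no gene met both thresholds of the test. No member passed an adjusted p of 0.05 with a fold change above 1.5 (edgeR, 0 of 69 higher and 0 of 69 lower), nor did any other gene (0% of 16505 in either direction). DESeq2 on the same libraries called 1 member higher, Slc26a4, and 1 lower, Slc2a6, with 14 higher and 36 lower among 30851 genes. At an unadjusted p of 0.05 with the same fold, 6 members were higher (8.70%, against 1.91% of all tested genes) and 1 was lower (1.45%, against 4.11%). The 6 were Slc26a1, Slc26a4, Slc26a7, Slc2a2, Slc4a4 and Slc5a3, and the 1 was Slc2a6. That count of 6 depended on single libraries, and the count of 315 over all tested genes moved with it for some of them. Members numbered 17 without PBS replicate 3 (703 of all genes) and 16 without DMM replicate 1 (669), but 2 without PBS replicate 1 (217) or PBS replicate 4 (191) and 3 without DMM replicate 3 (317) or DMM replicate 5 (290). The median log2 fold change over the 69 tested members was 0.26, against 0.02 over all tested genes, with 52 members above 0 and 17 below. It was 0.16 without DMM replicate 4 (0.00 over all genes) and 0.16 with library size alone as the scaling (-0.06 over all genes).

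Over the 8 libraries, 16 members were called higher in DMM kidneys (23.2%, against 2.73% of all tested genes) and 1 was called lower (1.45%, against 3.56%). This set leaves out the PBS library most often highest and the DMM library most often lowest among members. The calls and adjusted p-values over 8 libraries, here and below, take no account of that choice. The members called higher included the sodium and lactate cotransporter Slc5a12, the sodium-proton exchanger Slc9a3, the loop salt cotransporter Slc12a1 and the exchanger pendrin, Slc26a4, and the gene called lower was the glucose facilitator Slc2a6. The median log2 fold change over tested members was 0.34, against 0.02 over all tested genes. Of the 16, 6 stayed called in each of the 8 fits that left out 1 library (Slc17a1, Slc17a3, Slc26a1, Slc26a4, Slc5a8 and Slc5a12), as did Slc2a6, and 10 lost the call in at least 1 of them. The number called higher was 7 without PBS replicate 4 (160 of all genes), 8 without PBS replicate 5 (131), 9 without DMM replicate 3 (186) and 8 without DMM replicate 5 (168). Without DMM replicate 4 it was 25 (1129 of 16828 genes), of which 15 were among the 16, and Slc9a4 joined Slc2a6 as lower. These shifts were thus seen over all genes and not in the members alone. Every DMM library lay above every PBS library in 21 of the 69 members and 1560 of 16550 genes, and below in 4 members and 1756 genes, in this set that leaves out the libraries most often highest in PBS and lowest in DMM among members. Over all genes, 452 were called higher and 590 lower, a split of 43.4% higher that became 28.3% with library size alone as the scaling, or 53.9% once GC content and length were corrected for. Scaling by library size alone moved the median over all genes from 0.02 to -0.09, and the members' median from 0.34 to 0.21.

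**Figure D1:**
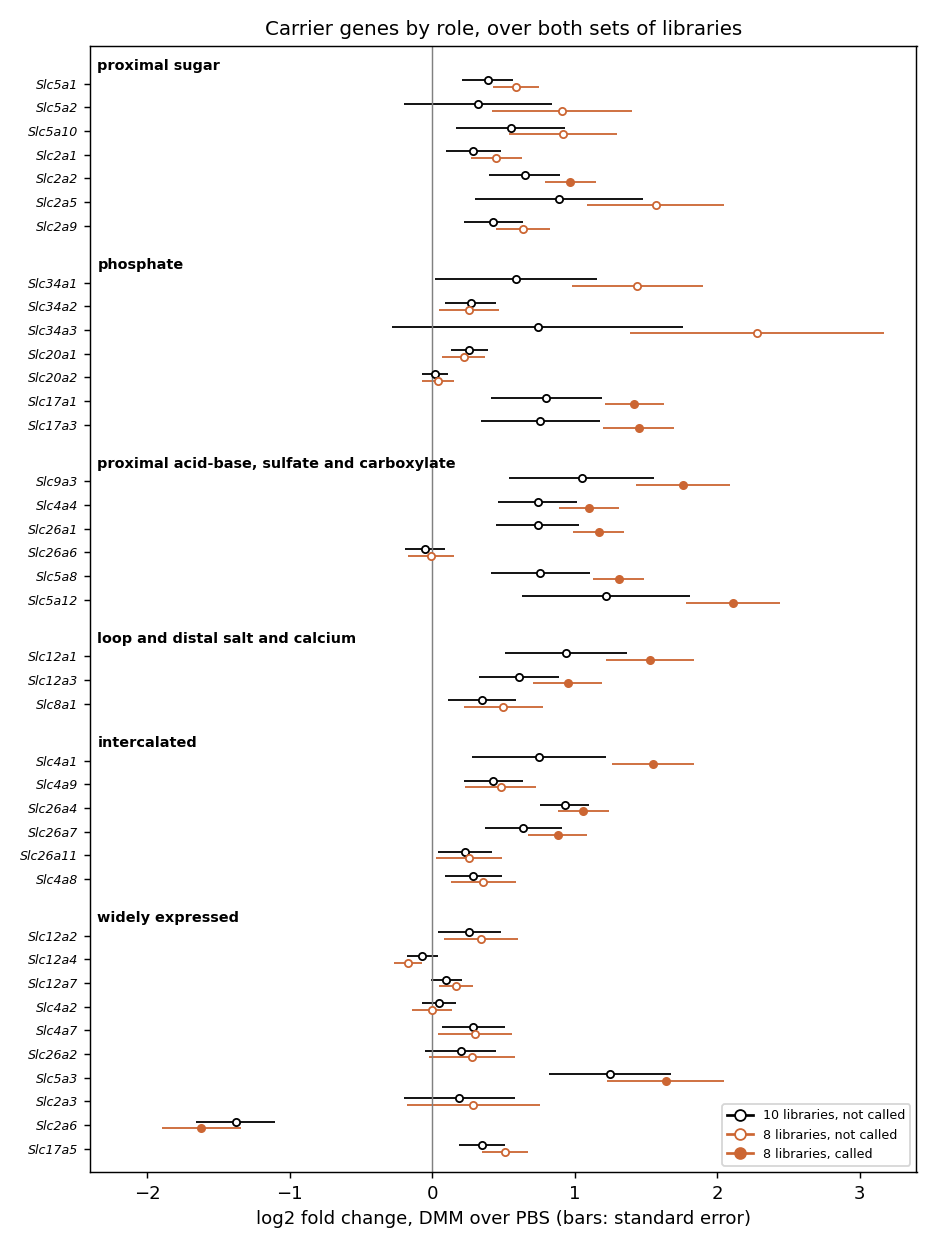
Log2 fold change of DMM over PBS (x axis, bars are standard errors) for carrier genes of each role, over 10 libraries in black and 8 libraries in orange, with filled points for genes called at an adjusted p of 0.05 and a fold above 1.5. Slc2a6 lies farthest to the left (-1.38 and -1.62), and no point is filled for the 10 libraries.

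Sugar carriers of the proximal tubule were 7 of 7 above 0 in both sets, with a median log2 fold change of 0.43 over 10 libraries and 0.91 over 8, and 1 of them was called, over 8 libraries. That gene was Slc2a2 (GLUT2), the basolateral glucose facilitator. Its normalised count was 50.1, 50.6, 76.9, 31.8 and 56.6 CPM in PBS replicates 1 to 5 and 45.2, 83.8, 92.7, 88.3 and 107 CPM in DMM replicates 1 to 5. The groups overlapped over 10 libraries through DMM replicate 1, while PBS replicate 3 lay below DMM replicates 2 to 5. Over the 8 libraries, every DMM library lay above every PBS library. The log2 fold change was 0.65 ± 0.25 (SE) over 10 libraries (edgeR adjusted p = 0.408) and 0.97 ± 0.18 over 8 (adjusted p = 0.0152, and 0.0526 without DMM replicate 5).

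The high-capacity apical glucose carrier Slc5a2 (SGLT2) varied more within groups than between them. It stood at 58.3 ± 37.0 CPM (SD, n = 5) in PBS and 72.6 ± 39.7 CPM (SD, n = 5) in DMM kidneys, with a log2 fold change of 0.32 ± 0.52 over 10 libraries (edgeR adjusted p = 0.819) and 0.91 ± 0.49 over 8 (adjusted p = 0.326). Its exons share 597 bases with those of BC017158 on the opposite strand, and the use of strand in counting is not given in the sources used here, so that reads in the shared bases cannot be told apart. Slc5a1 (SGLT1), the high-affinity glucose carrier, had log2 fold changes of 0.39 ± 0.18 over 10 libraries (edgeR adjusted p = 0.459) and 0.59 ± 0.16 over 8 (adjusted p = 0.064), where it was called without DMM replicate 4 (0.00597), by DESeq2 (0.0231), with a length correction (0.0321) and when GC content was corrected for too (0.0275). For Slc2a5, the fructose facilitator GLUT5, the PBS libraries held 3.46 to 17.1 CPM and the DMM libraries 3.15 to 32.6 CPM. Its log2 fold change was 0.89 ± 0.59 over 10 libraries (edgeR adjusted p = 0.564) and 1.57 ± 0.48 over 8 (adjusted p = 0.0883), where it was not called but was without DMM replicate 4 (1.86, adjusted p = 0.00353), by DESeq2 (0.00953) and after the correction for GC content and length (0.0299). Slc5a10, a mannose and fructose carrier whose exons overlap those of Fam83g by 393 bases on the opposite strand, stood at 0.55 ± 0.38 over 10 libraries (edgeR adjusted p = 0.57), 0.92 ± 0.38 over 8 (adjusted p = 0.199) and 1.20 without DMM replicate 4 (adjusted p = 0.00207), and was also called after the correction for GC content and length (adjusted p = 0.027) but not by DESeq2 (adjusted p = 0.112). The widely used glucose facilitator Slc2a1 was not called over 10 libraries (0.29 ± 0.19) or 8 (0.45 ± 0.18). Nor was the urate carrier Slc2a9 (0.43 ± 0.21 over 10 libraries, edgeR adjusted p = 0.481, and 0.64 ± 0.19 over 8, adjusted p = 0.0852), which in the smaller set was called without DMM replicate 4 (0.0228), by DESeq2 (0.0359) and once GC content and length were corrected for (0.0317). Outside this list, the sugar carrier Slc5a9 (SGLT4) was not called over 10 libraries (0.64 ± 0.31, edgeR adjusted p = 0.48) but was over 8 (1.03 ± 0.26, adjusted p = 0.045). It lost the call in 6 of the 8 fits with 1 library left out, those without PBS replicates 2, 4 or 5 or DMM replicates 2, 3 or 5 (adjusted p from 0.0881 to 0.144), as well as with library size alone as the scaling (0.0821) and with no filter (0.0533).

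Phosphate carriers were led by Slc34a1 (NaPi-IIa), the main apical phosphate carrier of the proximal tubule and the member with the highest level per length, at a mean of 159 FPKM (the deposited level per transcript length and library size) over 10 libraries. Slc34a1 counts were 514, 531, 1470, 131 and 353 CPM in PBS replicates 1 to 5 and 341, 1090, 1160, 474 and 1440 CPM in DMM replicates 1 to 5. PBS replicate 3 was the highest library of all 10, above every DMM kidney, and the groups overlapped over 10 and over 8 libraries. The mean was 600 ± 512 CPM (SD, n = 5) in PBS and 901 ± 471 CPM (SD, n = 5) in DMM kidneys. The log2 fold change was 0.59 ± 0.57 over 10 libraries (edgeR adjusted p = 0.687) and 1.44 ± 0.46 over 8 (adjusted p = 0.1), where it was not called but was by some alternatives, among them at an adjusted p of 0.0115 without DMM replicate 4, 0.0111 by DESeq2 and 0.0387 after the correction for GC content and length. Slc34a3 (NaPi-IIc), a second apical phosphate carrier, was nearly silent in some kidneys. It stood at 3.02, 3.65, 14.3, 0.0532 and 0.588 CPM in PBS replicates 1 to 5 and at 0.555, 10.3, 11.2, 1.81 and 12.2 CPM in DMM replicates 1 to 5. Its log2 fold change was 0.74 ± 1.02 over 10 libraries (edgeR adjusted p = 0.781) and 2.28 ± 0.89 over 8 (adjusted p = 0.179), called in neither, and the latter became 2.62 without DMM replicate 4 (adjusted p = 0.0215).

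Slc17a1 and Slc17a3, cloned as sodium and phosphate cotransporters and known as carriers of urate and other organic anions, were both called over 8 libraries. Slc17a1 stood at 75.6, 93.9, 197, 46.5 and 76.1 CPM in PBS replicates 1 to 5 and at 70.5, 192, 188, 172 and 230 CPM in DMM replicates 1 to 5. All 4 DMM libraries of the smaller set lay above its 4 PBS libraries, while PBS replicate 3 reached the DMM range and DMM replicate 1 the PBS range. For Slc17a1 the log2 fold change was 0.80 ± 0.39 over 10 libraries (edgeR adjusted p = 0.484) and 1.42 ± 0.21 over 8 (adjusted p = 0.0062). Slc17a3 followed with 0.76 ± 0.42 and 1.45 ± 0.25 (edgeR adjusted p = 0.524 over 10 libraries and 0.0112 over 8). The pair lies with Slc17a2 and Slc17a4 in a run on chromosome 13 between positions 23806993 and 23915009 (mm10), in which Slc17a1 and Slc17a4 are 160 bases apart. Slc17a2 was too low to test, and Slc17a4 was not called (0.42 over 10 libraries, 0.64 over 8, edgeR adjusted p = 0.542 and 0.135). The housekeeping phosphate carriers Slc20a1 (0.26 ± 0.13 over 10 libraries and 0.22 ± 0.15 over 8) and Slc20a2 (0.02 ± 0.09 and 0.04 ± 0.11) and Slc34a2, NaPi-IIb (0.27 ± 0.18 and 0.26 ± 0.21), were not called in either set.

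Over 8 libraries, 5 of 6 carriers of acid, bicarbonate, sulfate and carboxylates in the proximal tubule were called higher, against 2.73% of all tested genes. Their median log2 fold change was 1.24 over 8 libraries and 0.75 over 10, where 0 of 6 were called. Slc5a12 (SMCT2), which takes up lactate with sodium at the apical membrane, had the highest log2 fold change among called members. Its counts were 50.4, 43.5, 132, 17.6 and 30.7 CPM in PBS replicates 1 to 5 and 23.2, 115, 161, 130 and 209 CPM in DMM replicates 1 to 5. DMM replicate 1 was lower than 4 of the 5 PBS libraries and PBS replicate 3 was higher than DMM replicates 1, 2 and 4. Between groups, its log2 fold change was 1.22 ± 0.59 over 10 libraries (edgeR adjusted p = 0.482) and 2.11 ± 0.33 over 8 (adjusted p = 0.00812, all 4 DMM libraries above all 4 PBS libraries). Its relative Slc5a8 (SMCT1), which carries lactate and short-chain fatty acids, had 0.76 ± 0.35 and 1.31 ± 0.18 (edgeR adjusted p = 0.459 over 10 libraries and 0.00495 over 8).

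Slc9a3 (NHE3), the main apical sodium-proton exchanger of the proximal tubule, stood at 31.1, 30.7, 72.8, 17.3 and 20.9 CPM in PBS replicates 1 to 5 and at 18.0, 70.6, 112, 42.3 and 115 CPM in DMM replicates 1 to 5. For Slc9a3 the log2 fold change was 1.05 ± 0.51 over 10 libraries (edgeR adjusted p = 0.484) and 1.76 ± 0.33 over 8 (adjusted p = 0.0169), with the call lost without PBS replicate 4 or 5 or DMM replicate 3 or 5 (adjusted p from 0.0526 to 0.0711). Slc4a4 (NBCe1), the basolateral sodium bicarbonate cotransporter, was among the most abundant members at a mean of 54.8 FPKM. It had log2 fold changes of 0.74 ± 0.28 (edgeR adjusted p = 0.405) and 1.10 ± 0.21 (adjusted p = 0.018), and lost the call without PBS replicate 1, 4 or 5 or DMM replicate 5 (adjusted p from 0.051 to 0.0576). Slc26a1 (SAT1), a basolateral sulfate and oxalate exchanger, stood at 37.7 ± 16.1 CPM (SD, n = 5) in PBS and 63.1 ± 17.1 CPM (SD, n = 5) in DMM kidneys. Its log2 fold changes were 0.74 ± 0.29 over 10 libraries (edgeR adjusted p = 0.408) and 1.17 ± 0.18 over 8 (adjusted p = 0.00819). The exons of Slc26a1 share 141 bases with Idua on the opposite strand. The apical anion exchanger Slc26a6 was level in every library, between 5.29 and 6.86 CPM, with log2 fold changes of -0.05 ± 0.14 and -0.01 ± 0.16. Slc9a8 (NHE8), another apical sodium-proton exchanger, was not called over 10 libraries (0.30 ± 0.19, edgeR adjusted p = 0.547) and was called over 8 just above the fold threshold (0.59 ± 0.11, adjusted p = 0.0151). It lost the call without PBS replicate 4 or 5 (adjusted p = 0.0533 and 0.0685), and fell under the fold threshold without DMM replicate 4 (0.56), with library size alone as the scaling (0.48), with no filter (0.57) and with a length correction (0.51).

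Proximal tubule markers were high or low in many of the same libraries as these carriers. Their summed level was 4166, 4106, 10890, 1714 and 3238 CPM in PBS replicates 1 to 5 and 3177, 8322, 7150, 6036 and 10550 CPM in DMM replicates 1 to 5. PBS replicate 3 thus held the highest sum and PBS replicate 4 the lowest, and none of the 12 markers was at 0 in every library. The sum is led by abundant genes, in DMM replicate 4 by Lrp2 (2500 CPM) and Kap (1080 CPM). In that kidney the mean log2 level of the markers relative to the PBS mean was 0.32. The sugar, phosphate and acid-base carrier lists stood at 0.07, 0.4 and 0.89 there. The median log2 fold change of the markers was 0.53 over 10 libraries, with 0 of 12 called. Over 8 libraries it was 1.37, with 4 of 12 called higher (Lrp2, Cubn, Hnf4a and Pck1), against 2.73% of all tested genes. In whole kidney, fewer tubule cells and less RNA per cell cannot be told apart. The part of tubule content in the carriers' differences was not tested.

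**Figure D2:**
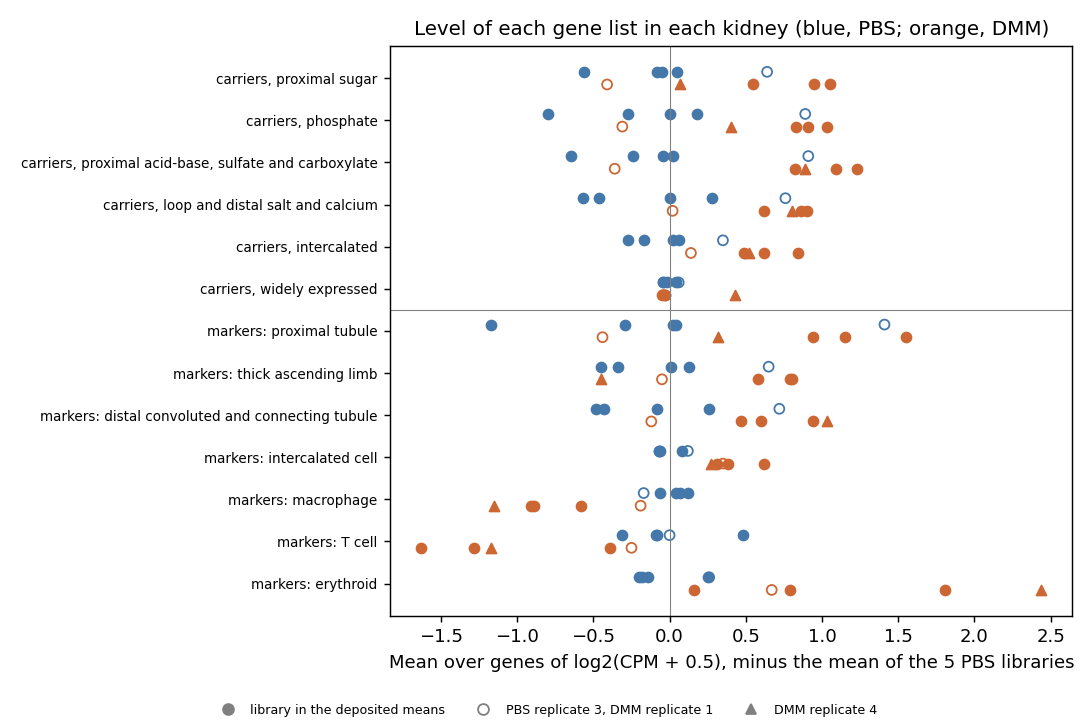
Mean over genes of log2(CPM + 0.5) in each kidney, relative to the mean of the 5 PBS libraries (x axis), for the carriers of each role and for marker lists of kidney and blood cells (y axis). For proximal tubule markers PBS replicate 3 (open blue) stands at 1.41 and DMM replicate 1 (open orange) at -0.44, and the proximal carriers of both libraries lie on the same sides.

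Further along the nephron, Slc12a1 (NKCC2), the salt cotransporter of the thick ascending limb, was the most abundant true carrier after Slc34a1, at a mean of 68.8 FPKM. Its counts were 324, 200, 531, 165 and 149 CPM in PBS replicates 1 to 5 and 196, 400, 671, 504 and 850 CPM in DMM replicates 1 to 5. Over 8 libraries every DMM kidney was above every PBS kidney, whereas over 10 the groups overlapped widely. For Slc12a1 the log2 fold change was 0.94 ± 0.43 over 10 libraries (edgeR adjusted p = 0.459) and 1.53 ± 0.31 over 8 (adjusted p = 0.0206). The call was lost without PBS replicate 2, 4 or 5 or DMM replicate 3 or 5 (adjusted p from 0.0591 to 0.077). Slc12a3 (NCC), the thiazide-sensitive salt cotransporter of the distal convoluted tubule, stood at 222 ± 92.3 CPM (SD, n = 5) in PBS and 338 ± 88.9 CPM (SD, n = 5) in DMM kidneys. It was not called over 10 libraries (0.61 ± 0.28, edgeR adjusted p = 0.462), was called over 8 at 0.95 ± 0.24 (adjusted p = 0.0497) and lost the call without PBS replicate 2, 4 or 5 or DMM replicate 2, 3 or 5 (adjusted p from 0.0985 to 0.158), with library size alone as the scaling (0.0965), with no filter (0.0514) and with a length correction (0.114). The sodium-calcium exchanger Slc8a1 (NCX1) was not called, at 0.35 ± 0.24 over 10 libraries and 0.50 ± 0.28 over 8.

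Markers of the same segments gave mixed values. The 4 thick ascending limb markers had medians of 0.35 over 10 libraries, with 0 called, and 0.68 over 8, with 1 called (Kcnj1), and their sum was 2570, 2233, 3370, 1682 and 1450 CPM in PBS replicates 1 to 5 and 2292, 3443, 3704, 1221 and 3976 CPM in DMM replicates 1 to 5. DMM replicate 4 had the lowest sum of all, mainly through Umod (1000 CPM), although Slc12a1 was at 504 CPM there. Of 3 tested markers of the distal convoluted and connecting tubule, 0 were called over 10 libraries (median 0.66) and 2 over 8 (median 0.89, Calb1 and Trpv5), and Pvalb was too low to test. Their part in the values of Slc12a1 and Slc12a3 was not tested.

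Among intercalated cell carriers, Slc26a4 (pendrin), the apical chloride and bicarbonate exchanger of the base-secreting cells, differed from the proximal genes in that its groups separated over all 10 libraries. Slc26a4 stood at 29.8, 29.3, 36.3, 16.4 and 27.4 CPM in PBS replicates 1 to 5 and at 50.7, 50.4, 56.8, 54.1 and 53.4 CPM in DMM replicates 1 to 5. The 5 DMM kidneys lay between 50.4 and 56.8 CPM, DMM replicate 1 included, and all were above PBS replicate 3, the highest of the PBS kidneys. It was the only member with every DMM library above every PBS library (1 of 69, 1.45%, against 0.794% of all tested genes). The log2 fold change was 0.93 ± 0.17 over 10 libraries (edgeR adjusted p = 0.378), and the call was made without DMM replicate 1 (0.95, adjusted p = 0.0243). Over 8 libraries it was 1.06 ± 0.18 (edgeR adjusted p = 0.0118), and stayed between 0.89 and 1.14 in the fits with 1 library left out. The gene lies on the minus strand of chromosome 12 at 31519827 to 31559969 (mm10), next to the untested Slc26a3.

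Other intercalated carriers were lower or less even. Slc26a7, a chloride and bicarbonate exchanger, stood at 1.64, 1.94, 2.14, 1.65 and 1.94 CPM in PBS replicates 1 to 5 and at 1.30, 3.21, 3.74, 3.38 and 2.86 CPM in DMM replicates 1 to 5. It was not called over 10 libraries (0.64 ± 0.27, edgeR adjusted p = 0.436), was called over 8 (0.88 ± 0.21, adjusted p = 0.0401) and lost the call without any library other than DMM replicate 4 (adjusted p from 0.0746 to 0.129), with library size alone as the scaling (0.0684), with no filter (0.137) and when GC content and length were corrected for (0.0761). Slc4a9 (AE4), a basolateral anion exchanger, was not called at 0.43 ± 0.21 over 10 libraries (edgeR adjusted p = 0.491) or 0.48 ± 0.25 over 8 (adjusted p = 0.319), but in the latter set was without DMM replicate 4 (0.68, adjusted p = 0.00951) and once GC content and length were corrected for (0.60, adjusted p = 0.0441). Not called were also Slc4a8 (0.29 ± 0.20 and 0.36 ± 0.23 over 10 and 8 libraries) and Slc26a11 (0.23 ± 0.19 and 0.26 ± 0.23). The 4 intercalated cell markers had a median of 0.45 over 10 libraries, with 0 called, and 0.47 over 8, with 1 called (Atp6v0d2), and summed to 136.9, 137.3, 163.0, 136.5 and 149.2 CPM in PBS replicates 1 to 5 and 180.0, 179.6, 232.5, 178.4 and 197.1 CPM in DMM replicates 1 to 5. Every DMM sum was above every PBS sum. The markers differed from one another, at log2 fold changes over 10 and 8 libraries of 0.53 and 0.63 for Atp6v0d2, which like Slc26a4 separated the groups over all 10 libraries, 0.58 and 0.83 for Aqp6, 0.37 and 0.32 for Atp6v1g3, and 0.11 and -0.01 for the transcription factor gene Foxi1. The part of intercalated cell number in the values of Slc26a4 was not tested.

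Slc4a1 is the basolateral anion exchanger AE1 of acid-secreting intercalated cells and also band 3, the main membrane protein of red cells. Its counts were 7.26, 5.94, 19.8, 4.52 and 3.12 CPM in PBS replicates 1 to 5 and 6.97, 10.7, 20.2, 15.7 and 14.6 CPM in DMM replicates 1 to 5. It was called over 8 libraries (log2 fold change 1.55 ± 0.29, edgeR adjusted p = 0.0162) but not over 10 (0.75 ± 0.47, adjusted p = 0.547), and lost the call without PBS replicate 4 (adjusted p = 0.0623) or DMM replicate 3 (adjusted p = 0.0519). Red cell transcripts were higher in some of the same kidneys. The summed erythroid markers stood at 135.7, 228.5, 230.4, 157.1 and 151.6 CPM in PBS replicates 1 to 5 and at 287.8, 216.1, 593.1, 790.5 and 275.7 CPM in DMM replicates 1 to 5, with Hbb-bs the most abundant. All 5 tested markers passed the unadjusted p and the fold over 10 libraries (median 1.58, and 1.01 without DMM replicate 4), and 0 of 5 were called in either set (median 1.78 over 8 libraries, and 1.15 without DMM replicate 4). PBS replicate 3 had a high Slc4a1 count and an erythroid sum close to that of PBS replicate 2, and DMM replicate 1 had an Slc4a1 count in the PBS range and an erythroid sum above every PBS sum. The part of red cells in the values of Slc4a1 was not tested.

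**Figure D3:**
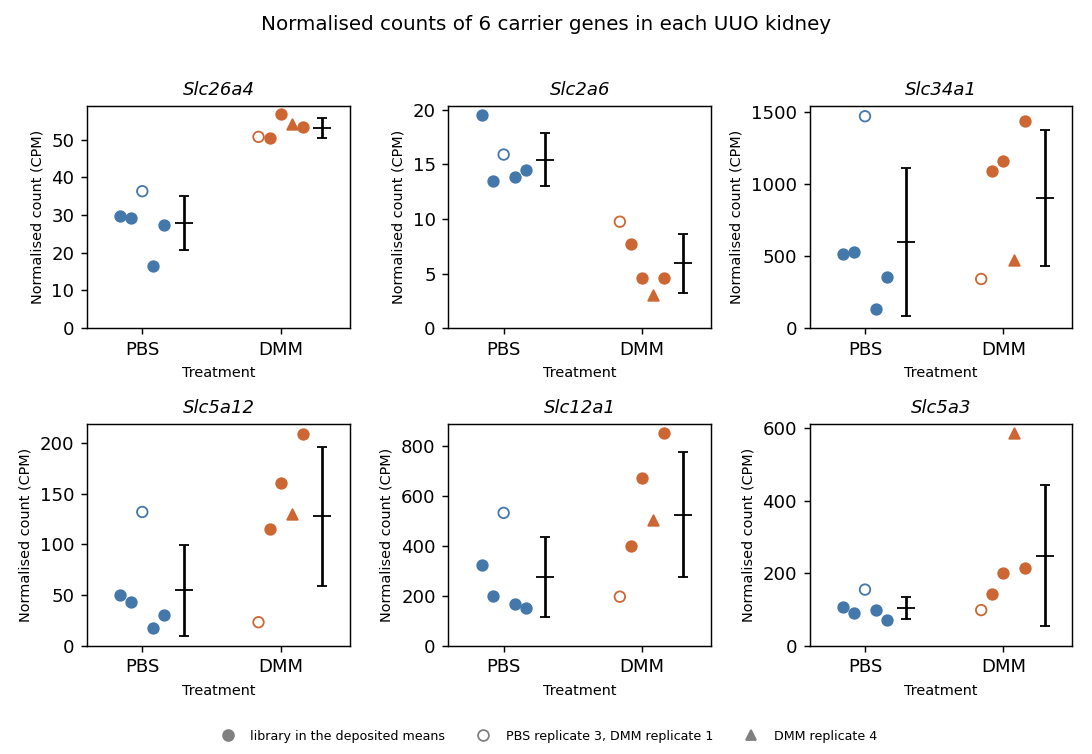
Normalised counts (y axis, CPM) of 6 carrier genes in each kidney by treatment (x axis), with the mean and SD of the 5 libraries of each group as black bars. For Slc26a4 and Slc2a6 the groups do not overlap, for Slc5a12 and Slc12a1 PBS replicate 3 and DMM replicate 1 (open circles) lie in the range of the other group, for Slc34a1 PBS replicate 3 lies above every DMM kidney, and for Slc5a3 DMM replicate 4 (triangle) stands at 586.

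The 12 widely expressed carriers were spread around 0, with medians of 0.18 over 10 libraries and 0.24 over 8 that turned to -0.02 and -0.04 without DMM replicate 4. Slc2a6 (GLUT6), a glucose facilitator best known from white blood cells and spleen, was the exception on the low side. Slc2a6 stood at 19.5, 13.5, 15.9, 13.8 and 14.5 CPM in PBS replicates 1 to 5 and at 9.75, 7.69, 4.59, 3.02 and 4.62 CPM in DMM replicates 1 to 5. The highest DMM kidney, replicate 1, was below the lowest PBS kidney. On the deposited per-length scale this was 4.16 to 6.03 FPKM in PBS and 0.93 to 3.03 FPKM in DMM kidneys. For Slc2a6 the log2 fold change was -1.38 ± 0.28 over 10 libraries (edgeR adjusted p = 0.378) and -1.62 ± 0.28 over 8 (adjusted p = 0.0115). Over 10 libraries without DMM replicate 1 it was called at -1.63 (edgeR adjusted p = 0.00624). Every DMM library was below every PBS library in 2 of 69 members (2.90%, against 1.16% of all tested genes), Slc2a6 and Slc12a9, the latter singled out after its values were seen. Slc12a9, a relative of the cation-chloride cotransporters, stood at 34.4 to 37.3 CPM in PBS and 16.2 to 33.8 CPM in DMM kidneys, with log2 fold changes of -0.36 ± 0.17 over 10 libraries (edgeR adjusted p = 0.484) and -0.44 ± 0.20 over 8 (adjusted p = 0.249).

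Macrophage and T cell markers were low in many of the same kidneys as Slc2a6. The 4 macrophage markers summed to 810.1, 744.2, 672.2, 755.1 and 853.8 CPM in PBS replicates 1 to 5 and to 680.4, 507.1, 426.2, 410.9 and 435.0 CPM in DMM replicates 1 to 5, with Csf1r the most abundant. The sum of DMM replicate 1 lay within the PBS range, and the other DMM sums lay below it. Their median log2 fold change was -0.66 over 10 libraries, with 0 of 4 called, and -0.81 over 8, with 1 called lower (Cd68). The 3 T cell markers had medians of -0.96 and -1.19, with Cd4 called lower over 8 libraries. The 3 neutrophil markers had medians of -0.06 and -0.12, with 0 called in either set, and rested on single libraries in either group. Their sum was highest in PBS replicate 4 (94.86 CPM) and DMM replicate 4 (72.49 CPM), against 17.39 to 30.47 CPM in the other 8, and the medians became -0.88 and -1.01 when only DMM replicate 4 was left out. Podocyte markers (3 genes, medians of 0.04 and -0.12 over 10 and 8 libraries), endothelial markers (3 genes, 0.05 and 0.03), fibroblast markers (4 genes, -0.18 and -0.54), principal cell markers (4 genes, 0.37 and 0.71) and markers of injured tubule (4 genes, 0.12 and 0.08) had 0 calls in either set. Of these, endothelial medians changed sign to -0.02 and -0.06 without DMM replicate 4 and to -0.04 and -0.09 with library size alone as the scaling, which also turned the podocyte median over 10 libraries to -0.03 and the injured tubule median over 8 to -0.04. The part of white blood cell content in the values of Slc2a6 was not tested.

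Slc5a3 (SMIT1), which takes up the osmolyte myo-inositol, was not called over 10 libraries (1.25 ± 0.43, edgeR adjusted p = 0.387) and was called higher over 8 (1.64 ± 0.41, adjusted p = 0.0464). Its counts were 106, 90.6, 155, 98.7 and 71.8 CPM in PBS replicates 1 to 5 and 98.4, 144, 200, 586 and 214 CPM in DMM replicates 1 to 5. DMM replicate 4 was far above all the others, and without it the log2 fold change was 1.02 over the other 7 libraries of the smaller set (edgeR adjusted p = 0.00205) and 0.65 over the other 9 (adjusted p = 0.271). The call was lost without PBS replicate 1, 2, 4 or 5 or DMM replicate 3 or 5 (adjusted p from 0.0737 to 0.144). Its exons share 159 bases with those of Mrps6 on the same strand. Slc12a2, Slc4a7 and Slc26a2 also stood highest in DMM replicate 4. Slc12a2 (NKCC1), the secretory salt cotransporter, went from 0.26 ± 0.22 over 10 libraries and 0.34 ± 0.26 over 8 to -0.04 and -0.02 without that library. Others of the list, the potassium-chloride cotransporters Slc12a4 and Slc12a7, the housekeeping exchanger Slc4a2, the glucose facilitator Slc2a3 and the lysosomal sialic acid exporter Slc17a5, lay between -0.07 and 0.35 over 10 libraries and between -0.17 and 0.51 over 8 and were not called, although in the smaller set Slc17a5 was without DMM replicate 4 (0.64, edgeR adjusted p = 0.001). Exons of Slc4a2 share 1141 bases with Fastk on the opposite strand.

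The scaffold genes were not called in either set. Slc9a3r1, second in level among members at a mean of 88.4 FPKM, stood at 165 ± 28.0 CPM (SD, n = 5) in PBS and 178 ± 61.8 CPM (SD, n = 5) in DMM kidneys, with DMM replicate 4 lowest at 81.5 CPM. Its log2 fold change was 0.11 ± 0.25 over 10 libraries and 0.26 ± 0.29 over 8 (edgeR adjusted p = 0.639). Over 8 libraries it became 0.51 without DMM replicate 4 (edgeR adjusted p = 0.00267) and 0.45 once GC content and length were corrected for (adjusted p = 0.024), both under the fold threshold. Slc9a3r2 (-0.28 ± 0.17 over 10 libraries and -0.37 ± 0.19 over 8) and Slc4a1ap (0.02 ± 0.09 and -0.01 ± 0.11) stood near or below 0. Slc2a10, a member of the glucose facilitator family, had the largest decrease after Slc2a6 among members past an unadjusted p of 0.05, at -0.70 ± 0.22 over 8 libraries, and there was not called by edgeR (adjusted p = 0.093) but was by DESeq2 (adjusted p = 0.0398). Over 10 libraries it stood at -0.42 ± 0.24 (edgeR adjusted p = 0.533).

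By family, the 9 tested Slc5 genes were all above 0 in both sets, with medians of 0.55 and 0.96. Of the 9, 4 were called higher over 8 libraries, against 2.73% of all tested genes. The 3 Slc34 genes were likewise above 0, at medians of 0.59 and 1.44, with 0 called. Slc12, Slc9 and Slc8 had medians of 0.10, 0.11 and 0.03 over 10 libraries and 0.17, 0.20 and 0.07 over 8. Without DMM replicate 4 the former became 0.02, -0.02 and -0.03, and the latter turned to -0.02, -0.06 and -0.01. Slc8 in either set also stood at -0.06 with library size alone as the scaling. The 15 members that were too low to test had at most 26 counts in any library and 0.53 FPKM. They were Slc17a2, Slc17a6, Slc17a7, Slc17a8, Slc26a3, Slc26a5, Slc26a8, Slc26a9, Slc2a7, Slc4a10, Slc5a4a, Slc5a4b, Slc5a5, Slc5a7 and Slc8a3, several of which are known from brain, thyroid or gut.

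Genes that power, anchor or regulate these carriers were described as a list of 40, all of them tested. None was called over 10 libraries, where 5 of 40 were higher at the unadjusted p and fold, against 1.91% of all tested genes. Over 8 libraries 8 of 40 were called higher, against 2.73% of all tested genes, and 0 lower, against 3.56%. The list's median log2 fold change was 0.36 over 10 libraries and 0.62 over 8. The 8 included the sodium pump subunit gene Atp1b1 (0.56 over 10 libraries and 0.87 over 8), the potassium channel genes Kcnj1, Kcnj10, Kcnj15 and Kcnj16 (0.61, 0.76, 0.90 and 0.65 over 10, and 0.92, 1.09, 1.37 and 0.90 over 8), the phosphate regulator Kl (0.64 and 1.29) and the transcription factor Hnf4a (0.53 and 0.88). Kl encodes klotho, the co-receptor through which FGF23 lowers Slc34a1. Hnf4a and Kcnj1 are also in the marker lists above.

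Promoter windows of 300 bases, from 250 before to 50 after a transcript start, were read from RefSeq (GRCm38.p6), and 64 of the 84 members matched by symbol, with 79 windows. The windows of Slc26a4 and Slc2a6 are given as those of the members that separated the groups over all 10 libraries and were called over 8. Capitals mark TATAAA, the TATA box core. The Slc26a4 window is chr12:31559935-31560234 (minus strand), and that of Slc2a6 is chr2:27027949-27028248 (minus strand).
Slc26a4: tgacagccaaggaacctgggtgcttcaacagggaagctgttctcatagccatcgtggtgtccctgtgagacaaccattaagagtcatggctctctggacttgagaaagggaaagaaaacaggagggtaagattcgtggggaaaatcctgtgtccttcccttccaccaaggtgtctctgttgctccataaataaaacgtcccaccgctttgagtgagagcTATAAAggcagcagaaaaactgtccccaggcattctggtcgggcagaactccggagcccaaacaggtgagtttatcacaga
Slc2a6: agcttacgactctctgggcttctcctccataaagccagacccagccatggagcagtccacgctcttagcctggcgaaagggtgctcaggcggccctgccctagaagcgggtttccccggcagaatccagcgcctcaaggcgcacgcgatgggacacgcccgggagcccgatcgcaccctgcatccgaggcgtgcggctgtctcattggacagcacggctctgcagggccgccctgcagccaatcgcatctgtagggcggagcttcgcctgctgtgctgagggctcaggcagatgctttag

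Slc26a4 held 1 TATAAA, and Slc2a6 held none on either strand. A match describes the letters of the window only, and no binding was measured.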

How the data were processed

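Bulk RNA-seq libraries of obstructed kidneys, 5 from PBS-treated and 5 from DMM-treated mice, were grouped by their titles. According to the submitters' processing notes and the methods, reads were aligned with HISAT2 (version 2.0.5) to mm10. The counting tool, annotation and use of strand are not given in the sources used here. The authors deposited raw counts per gene, FPKM values (counts divided by gene length and library size), gene length in base pairs, and group means, a signal made of counts divided by size factors. The table also holds the fold change, p-value and adjusted p-value of the authors' own comparison, which were not used. Deposited group means, regressed on the counts, gave PBS replicate 3 and DMM replicate 1 a weight of 0.

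Counts were filtered with filterByExpr, scaled by TMM and tested with the quasi-likelihood F test of edgeR 4.0.16 in R 4.3.3, DMM against PBS, over 16505 genes (10 libraries) or 16550 genes (8 libraries), and p-values were adjusted over all of them by the Benjamini-Hochberg method. A call required both a fold above 1.5 and an adjusted p below 0.05. The F statistic and the log2 fold change together gave the standard error. CPM values use the scaling of all 10 libraries and were compared within a gene, and FPKM values between genes. The steps were tested on simulated data. Members and lists were chosen with earlier results of these data known. Named genes were the members of 6 role lists, members called in either set, the 5 largest rises and falls at an unadjusted p under 0.05, the 5 most abundant by FPKM, and the 3 members that are not carriers. Pairs of libraries in a group differed beyond sampling noise (chi-square per gene of 9.95 or more), so that no library was a copy of another in its group. Libraries of different groups were not compared in this way. Exon overlaps came from GENCODE M21, in which 81 of the 84 members have the deposited coordinates. Total counts of 15722527 to 19475833 per library limit the precision of members under about 1 CPM. Alternatives were other scalings, no filter, DESeq2 1.42.0, a replicate block, no fold threshold, a length correction, each library left out in turn and, chosen after seeing the data, a GC and length correction. Results of some genes and counts of promoter motifs are not reported here.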

Additional observations from a re-analysis of the deposited data

Results flagged for a closer look

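Within a group of 5 libraries, the kidney farthest from the rest was checked for the size of its gap relative to the range of the group, over 90 groups (45 genes, each in PBS and in DMM kidneys). Chance marks about 1 in 20 such groups, and 16 were marked, 9 in DMM replicate 4, 7 in PBS replicate 3 and 0 in DMM replicate 1. Each was the highest of its group.

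In DMM replicate 4, the count stood far above the other 4 DMM kidneys for cation-chloride cotransporters, at 188 CPM for Slc12a2 (others 79.5 to 92.6) and 193 for Slc12a7 (139 to 154). The bicarbonate carriers Slc4a7 and Slc4a8 stood at 67.7 CPM (others 29.0 to 34.5) and 42.5 CPM (20.3 to 23.9). The same kidney was highest for the sulfate carrier Slc26a2 at 76.3 CPM (others 27.4 to 34.3) and the phosphate carrier Slc20a1 at 70.0 CPM (45.7 to 51.8). It also stood apart for Slc2a3 at 21.9 CPM (others 5.74 to 7.47), Slc8a1 at 92.3 CPM (40.1 to 52.1) and Slc5a3 at 586 CPM (98.4 to 214).

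In PBS replicate 3, carriers of the proximal tubule were far above the other 4 PBS kidneys, at 192 CPM for Slc17a3 (others 38.3 to 80.8), 132 CPM for Slc5a12 (17.6 to 50.4), 135 CPM for Slc5a8 (41.7 to 67.1), 72.8 CPM for Slc9a3 (17.3 to 31.1), 87.5 CPM for Slc9a8 (43.1 to 54.2) and 14.3 CPM for Slc34a3 (0.0532 to 3.65). The anion exchanger Slc4a1 was at 19.8 CPM there (others 3.12 to 7.26).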

How the results depend on the processing

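Across 1598 alternative values of the 47 named genes, 1492 gave the same outcome, 80 a weaker one, 26 a stronger one and 0 a reversed one. Of all these values, 44 had the opposite sign to the edgeR value they were held against. Only a gene called by edgeR could give a weaker outcome, and over 10 libraries no member was called. Most values with the same outcome were thus of genes not called, and the tally does not measure how stable the calls were. With the replicate number as a block, 17 values were weaker. Over 10 libraries, 0 members were called in either direction by edgeR under every other scaling, filter or correction run and with no fold threshold, while DESeq2 called 1 higher and 1 lower, and the fits with 1 library left out gave 0 to 1 in each direction. At the unadjusted p and fold, the 6 members higher became 12 with no filter on low counts and 13 by DESeq2. Over all genes, 315 of 16505 higher became 696 and 606 of 30851. The 1 member lower became 2 under both, while 678 lower over all genes became 1096 and 919. Leaving out 1 library gave 2 to 17 members higher and 1 to 2 lower. Over 8 libraries, where 16 members were called higher and 1 lower, DESeq2 called 22 higher and 2 lower (749 and 911 of 30191 genes), library size alone as the scaling or no filter gave 12 higher and 1 lower (276 and 700 of 16550 genes, and 409 and 549 of 30191), and leaving out 1 library gave 7 to 25 higher and 1 to 2 lower. The median of 0.34 became 0.21 with library size alone as the scaling and ranged from 0.32 to 0.44 with 1 library left out. A correction for GC content and length, chosen after seeing the data, called 24 members higher and 1 lower over 8 libraries, with 769 of 16550 genes higher against 452 without it. The cause of these shifts was not tested.

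Replicate numbers did not pair the kidneys. Deviations of PBS and DMM libraries with the same number correlated at -0.06, 0.079, 0.341, 0.124 and -0.223 for numbers 1 to 5, and only number 2 had its best partner in its own number. With the number as a block, 0 members were called higher and 0 lower over 8 libraries, and 0 of all 16550 genes in either direction. Over 10 libraries, 11 members were then higher at the unadjusted p and fold (267 of 16505 genes). With the GC and length correction added to the block, 11 members were called higher over 8 libraries (236 of 16550 genes). In that fit 0 members were called lower (204 genes). Over 10 libraries it had 13 members higher at the unadjusted p and fold (420 of 16505 genes). Depth limits what can be said of the 15 untested members, which had 26 counts or fewer.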
